A study of Mus musculus with 20 samples.

Results

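This report describes hepatic expression of 10 genes that encode enzymes of bile acid synthesis, matched by symbol in the table of read counts, out of 55487 gene identifiers. The genes are Cyp7a1, Cyp8b1, Cyp27a1, Cyp7b1, Hsd3b7, Akr1d1, Amacr, Acox2, Slc27a5 and Baat, and all 10 passed the filter on low counts in every comparison. Liver RNA came from 20 female C57BL/6J mice at 28 weeks of age, with 1 library per mouse. A reference group of 5 mice was kept on chow. The other 15 mice had become obese on a high-fat diet (HFD) for 10 weeks, and for the last 10 weeks they ate an HFD in which a fixed share of the protein came from fishmeal made of salmon by-products (5 mice), salmon filet (6 mice by label) or beef (4 mice by label). The HFD groups share the earlier obesity and were alike in fat content, but per the study's methods their diets also differed in cholesterol, which was highest with fishmeal, and in fatty acids. The study also reports differences in amino acids and minerals between the protein sources. Protein source, dietary cholesterol, fatty acids and these other nutrients therefore cannot be told apart here. Chow differs from all HFD groups in its shares of fat, carbohydrate and protein.

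Bile acids are made from cholesterol in hepatocytes and are its main route of disposal. In the classical pathway, Cyp7a1 hydroxylates cholesterol in the rate-limiting step and Cyp8b1 adds the hydroxyl group that makes cholic acid. In the alternative pathway, Cyp27a1 first oxidises the cholesterol side chain in mitochondria and Cyp7b1 then hydroxylates the oxysterol. The routes share Hsd3b7 and Akr1d1, which modify the sterol ring, Amacr and Acox2, which act on the side chain in peroxisomes, and Slc27a5 and Baat, which activate bile acids and join them to taurine or glycine. Bile acids are known to repress Cyp7a1 and Cyp8b1 through the receptor FXR (Nr1h4) and its target SHP (Nr0b2), and Cyp7a1 is known to follow the circadian clock.

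Counts per library ranged from 42526234 to 70266136. The protein coding share of the counts was 93.16% to 95.56% in all libraries but that of mouse 35 (beef), where it was 84.34%. The hepatocyte markers Alb, Apoa1, Ttr, Asgr1 and Tat summed to 79900 to 111000 CPM (read counts scaled to a common library size) in the 20 libraries. Between HFD and chow, 0 of these 5 genes passed the test (edgeR), and Asgr1 and Tat had an unadjusted p under 0.05. Markers of other cells were low against this. The summed level of 3 adipocyte markers was at most 0.114 CPM, with Lep at 0 in all libraries, and that of 3 exocrine pancreas markers was at most 0.336 CPM. The sample label places mouse 31 in the salmon filet group, whereas its column in the count table carries the name of the beef group. The column name would give groups of equal size, as in the study's methods. Mouse numbers also run by group, from 1 to 10 with chow and 12 to 20 with fishmeal. Apart from mouse 31 they run from 22 to 27 with salmon filet and from 32 to 40 with beef. Number 31 thus lies next to the beef mice. The sample label is followed here because all groups were taken from sample labels, and the tests that set the salmon filet or beef group against another group were also run with mouse 31 counted as beef, with values given where a gene or ratio is described. Chow against all HFD, fishmeal against chow, and fishmeal against the pooled salmon filet and beef groups do not depend on that assignment.

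On the mouse build GRCm38, Cyp7a1 (ENSMUSG00000028240) is at chr4:6265612-6275633 on the minus strand with 6 exons in its longest transcript. Cyp8b1 (ENSMUSG00000050445) is at chr9:121914356-121916305 on the minus strand and is a single exon. Cyp27a1 (ENSMUSG00000026170) is at chr1:74713574-74737892 on the plus strand with 9 exons, and Cyp7b1 (ENSMUSG00000039519) is at chr3:18071950-18243338 on the minus strand with 6 exons. No other gene shared a stretch of at least 100 bases at 90% identity or more with the longest transcript of 9 of the 10 genes. The exception was Hsd3b7, whose exons overlap the protein coding model Gm49388 on the same strand over 62.0% of their bases and the transcript 9430064I24Rik on the opposite strand over 62.4%, so the counts of Hsd3b7 are uncertain.

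Promoter sequence from RefSeq (GRCm38.p6) matched 5 of the 10 genes by symbol: Cyp27a1, Cyp8b1, Hsd3b7, Akr1d1 and Acox2. Cyp7a1, Cyp7b1, Amacr, Slc27a5 and Baat had no entry. The 250 bases before the start site are shown for Cyp8b1 and Cyp27a1, the matched hydroxylases, 1 from each pathway, which differed in how evenly they were expressed between mice. Letters were searched on both strands for HNF4A (CAAAGTCCA), LRH-1 (AAGGTCA or AAGGCCA), the E-box (CACGTG) and the D-box (TTATGTAA), and matches are in capitals.
Cyp8b1, chr9:121916306-121916555, minus strand: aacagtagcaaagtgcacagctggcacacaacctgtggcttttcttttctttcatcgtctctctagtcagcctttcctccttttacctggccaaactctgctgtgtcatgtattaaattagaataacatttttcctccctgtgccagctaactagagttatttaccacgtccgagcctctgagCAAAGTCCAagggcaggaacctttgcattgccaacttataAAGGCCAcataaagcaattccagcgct
Cyp27a1, chr1:74713285-74713534, plus strand: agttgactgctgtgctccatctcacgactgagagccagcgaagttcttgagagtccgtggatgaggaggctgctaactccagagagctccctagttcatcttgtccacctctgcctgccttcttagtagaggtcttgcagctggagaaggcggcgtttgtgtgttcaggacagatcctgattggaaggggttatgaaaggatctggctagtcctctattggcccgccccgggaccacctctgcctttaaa
The Cyp8b1 window held the HNF4A letters from base -67 to -59 and the LRH-1 letters from base -27 to -21, counted from the start site. The HNF4A letters occurred in 0.384% and the LRH-1 letters in 9.09% of 32851 promoters of the same length, the E-box in 6.02% and the D-box in 0.819%. No such letters were found in the windows of Cyp27a1, Hsd3b7, Akr1d1 or Acox2. A match describes the sequence and does not show that a factor bound there.

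Levels of different genes were compared as TPM, in which read counts are scaled to gene length and to library size. Slc27a5, the bile acid-CoA ligase, had the highest TPM of the 10 genes in each of the 20 livers, with a median of 734 (539 to 845), and its range did not overlap that of the next gene. Baat (median TPM 349) and Akr1d1 (346) followed and could not be ordered, since Baat was above Akr1d1 in 9 of 20 livers. Cyp27a1 (262) and Cyp8b1 (220) came next, with Cyp27a1 above Cyp8b1 in 17 livers. Acox2 had a median TPM of 151, Amacr of 54.5 and Hsd3b7 of 27.7. The lowest median, 18.4, was that of Cyp7b1, and it was below Hsd3b7 in 17 of 20 livers.

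The place of Cyp7a1 and Cyp8b1 in this order varied between livers. Cyp7a1 had a TPM of 116 to 347 in chow-fed mice and of 24.6 to 103 in HFD-fed mice, and it ranked between place 5 and place 9 of the 10 genes. Cyp8b1 ranked between place 2 and place 10, with a TPM of 20.7 to 482. Cyp7a1 exceeded Cyp7b1 in TPM in all 20 livers, by 5.46 to 16.5 times in chow-fed and 1.60 to 5.29 times in HFD-fed mice. In the plot of TPM by gene, the conjugation and side chain enzymes form narrow bands and Cyp7a1 and Cyp8b1 spread widely.

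**Figure D1:**
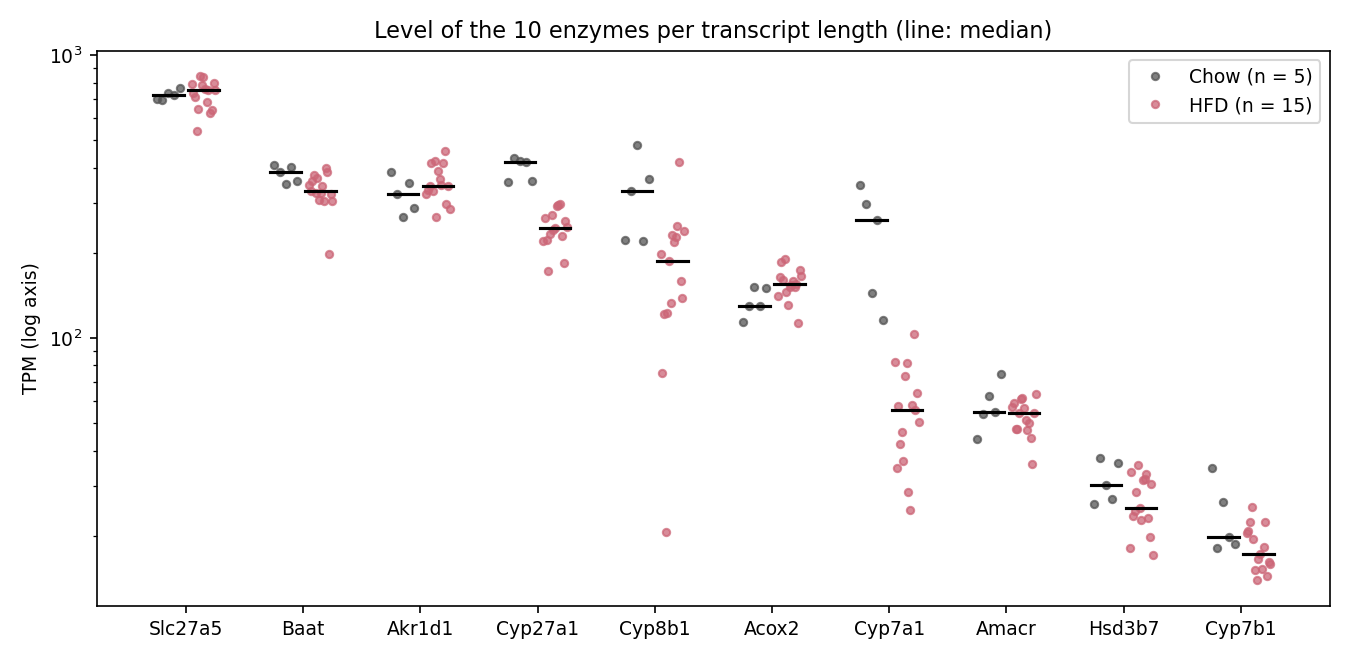
TPM (log axis) of the 10 enzymes in each of the 5 chow-fed and 15 HFD-fed mice, ordered by the median over all 20 livers; the lines are group medians. Slc27a5 lies above all others in every liver, and the Cyp7a1 values of the HFD-fed mice (24.6 to 103) lie below those of the chow-fed mice (116 to 347).

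Comparing all HFD-fed with chow-fed mice asks how an obesogenic diet relates to each enzyme. HFD-fed mice had lower expression of Cyp7a1, which starts the classical pathway, and of Cyp27a1, which starts the alternative pathway. Both fell, Cyp7a1 to 0.254 and Cyp27a1 to 0.638 of the chow level, whereas none of the 6 enzymes of the shared later steps passed the test. Thus 2 of 10 genes were called lower and 0 of 10 higher (edgeR, adjusted p under 0.05 over all genes tested), against a background of 5.21% of 17120 genes called lower and 4.54% called higher. At an unadjusted p under 0.05 there were 5 of the 10 genes, against 24.4% of all genes tested, and DESeq2 called 2 lower and 1 higher, where it called 12.6% of all genes in either direction. In whole liver, fewer cells of a type and less RNA per cell cannot be told apart.

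Cyp7a1 was at 574, 448, 245, 407 and 190 CPM in the chow-fed mice 1, 2, 5, 7 and 10. In the fishmeal group it was at 165, 54.3, 92.1, 71.1 and 72.4 CPM in mice 12, 13, 14, 16 and 20. It ranged from 38.9 to 139 CPM (median 75.4) in the 6 salmon filet mice, and was at 165, 107, 105 and 88.1 CPM in the beef mice 32, 35, 39 and 40. Every HFD-fed mouse was below the lowest chow-fed mouse. The mean was 94.9 ± 40.5 CPM (SD, n = 15) against 373 ± 156 CPM (SD, n = 5). On the log2 scale this difference was -1.98 (SE 0.276, edgeR adjusted p = 8.11e-05). The call was kept without mouse 31 (log2 fold change -1.98, edgeR adjusted p = 0.000165).

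Cyp27a1 was far more even within groups. It was at 306, 338, 376, 341 and 304 CPM in chow-fed mice 1, 2, 5, 7 and 10, and at 230, 216, 186, 152 and 190 CPM in the fishmeal mice. The salmon filet mice ranged from 217 to 249 CPM (median 232), and the beef mice were at 192, 187, 221 and 226 CPM. Again the 15 HFD-fed mice lay below the 5 chow-fed mice with no overlap. The mean was 213 ± 26.6 CPM (SD, n = 15) against 333 ± 29.4 CPM (SD, n = 5). The difference was -0.65 on the log2 scale (SE 0.0886, edgeR adjusted p = 6.03e-05). Ranges without overlap in this direction were found for 0.888% of the genes tested.

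Cyp8b1, the gene for the cholic acid branch, was at 172, 232, 383, 161 and 279 CPM in the chow-fed mice. It was at 186, 55.0, 91.2, 16.3 and 89.5 CPM in the fishmeal mice 12, 13, 14, 16 and 20. It ranged from 108 to 188 CPM (median 166) with salmon filet and was at 315, 144, 106 and 196 CPM with beef. The groups overlapped, and 8 of 15 HFD-fed mice were below all chow-fed mice. The log2 fold change of HFD against chow was -0.78 (SE 0.355) and did not pass the test (edgeR adjusted p = 0.178). Among HFD-fed mice the coefficient of variation of Cyp8b1 CPM was 49.8%, against 12.5% for Cyp27a1.

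Cyp7b1, the oxysterol hydroxylase, was at 29.8, 14.1, 23.3, 16.0 and 15.8 CPM in the chow-fed mice and at 21.3, 16.9, 18.6, 22.2 and 15.8 CPM in the fishmeal mice. It ranged from 12.1 to 15.2 CPM (median 13.4) with salmon filet and was at 18.7, 14.5, 13.7 and 14.4 CPM with beef. The chow and HFD values overlapped, and 4 of 15 HFD-fed mice were below all chow-fed mice. The log2 fold change was -0.33 (SE 0.157) and did not pass the test (edgeR adjusted p = 0.202).

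**Figure D2:**
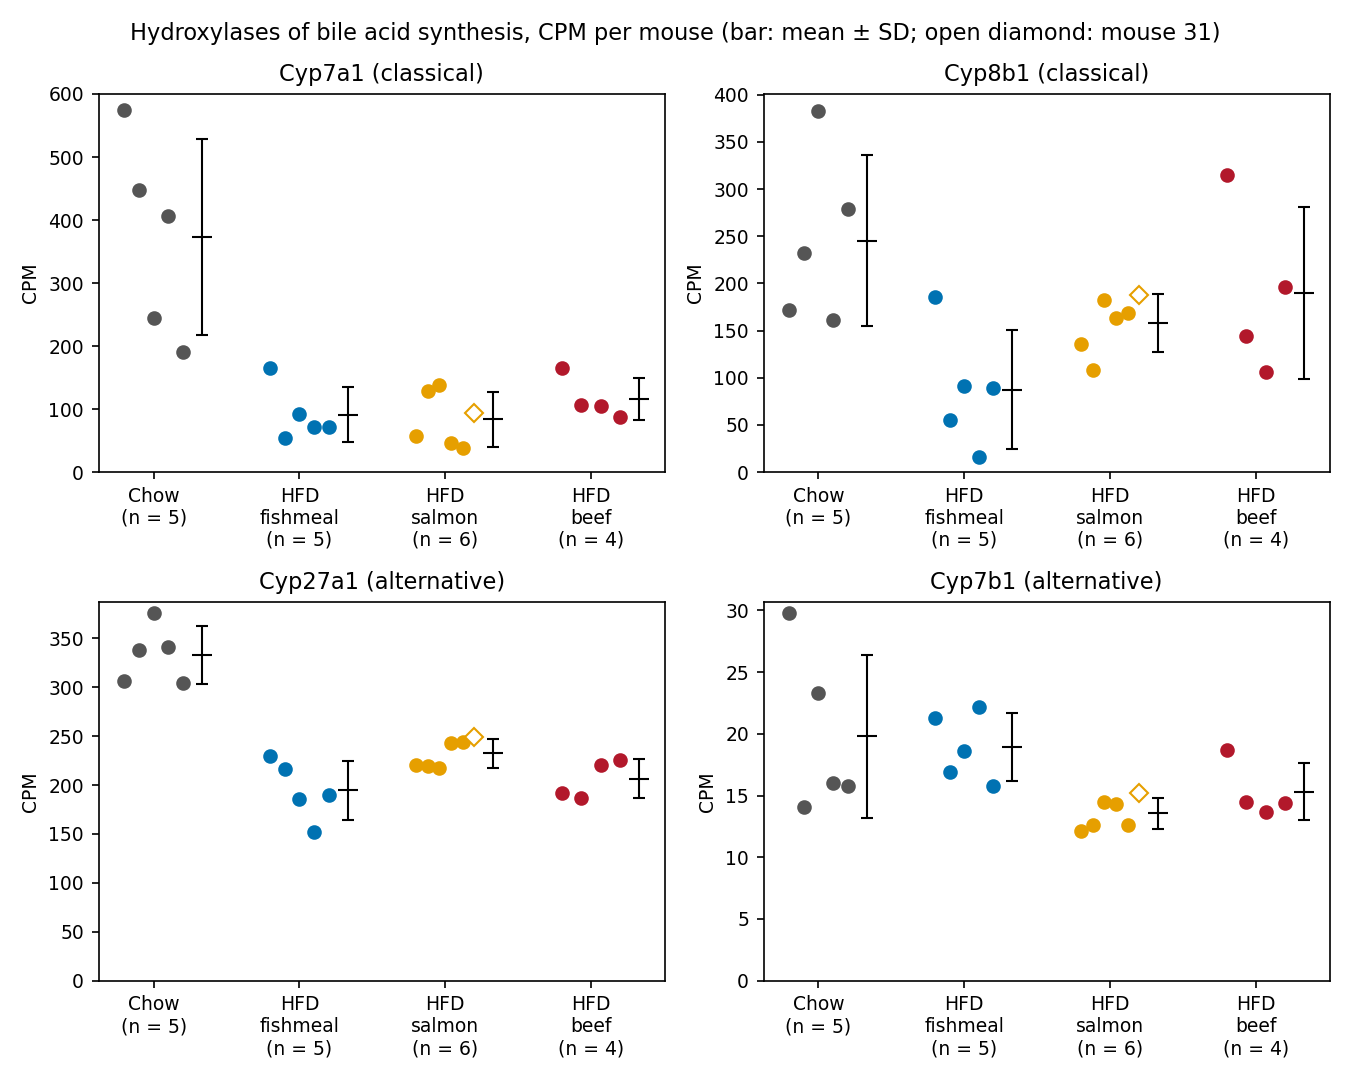
CPM of the 4 hydroxylases in each mouse by labelled group, with the mean ± SD beside the points; mouse 31 (labelled salmon filet, beef in the count table) is an open diamond. Cyp7a1 and Cyp27a1 of the 15 HFD-fed mice lie below all 5 chow-fed mice, Cyp8b1 is lowest in fishmeal mouse 16 (16.3 CPM), and Cyp7b1 of the fishmeal mice lies above that of the salmon filet mice.

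Whether the classical and alternative pathways changed unequally was tested on ratios within each liver, in which library size cancels. The log2 CPM ratio of Cyp7a1 to Cyp7b1 was 2.48 ± 0.61 (SD, n = 15) in HFD-fed and 4.18 ± 0.69 (SD, n = 5) in chow-fed mice. The ranges, 1.62 to 3.35 and 3.40 to 4.99, did not overlap. The difference was -1.70 (exact permutation test, two-sided, p = 6.45e-05, the smallest that 15504 splits allow, and 0.00155 adjusted over 24 tests of 3 ratios in 8 comparisons).

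The ratio of Cyp7a1 to Cyp27a1, the initiating enzymes, was -1.28 ± 0.70 (SD, n = 15) in HFD-fed and 0.05 ± 0.69 (SD, n = 5) in chow-fed mice on the log2 scale. Here the groups overlapped, and the difference was -1.34 (exact permutation test, p = 0.00174, adjusted p = 0.0209). Without chow mouse 1, which had the highest Cyp7a1 value, the difference was -1.13 (exact permutation test, adjusted p = 0.0586). The log2 ratio of Cyp8b1 to Cyp7a1 was 0.48 ± 1.01 (SD, n = 15) in HFD-fed and -0.56 (range -1.74 to 0.64, n = 5) in chow-fed mice, which did not pass the test (difference 1.05, exact permutation test, adjusted p = 0.117). In TPM, Cyp8b1 was above Cyp7a1 in 14 of 15 HFD-fed and 3 of 5 chow-fed livers.

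**Figure D3:**
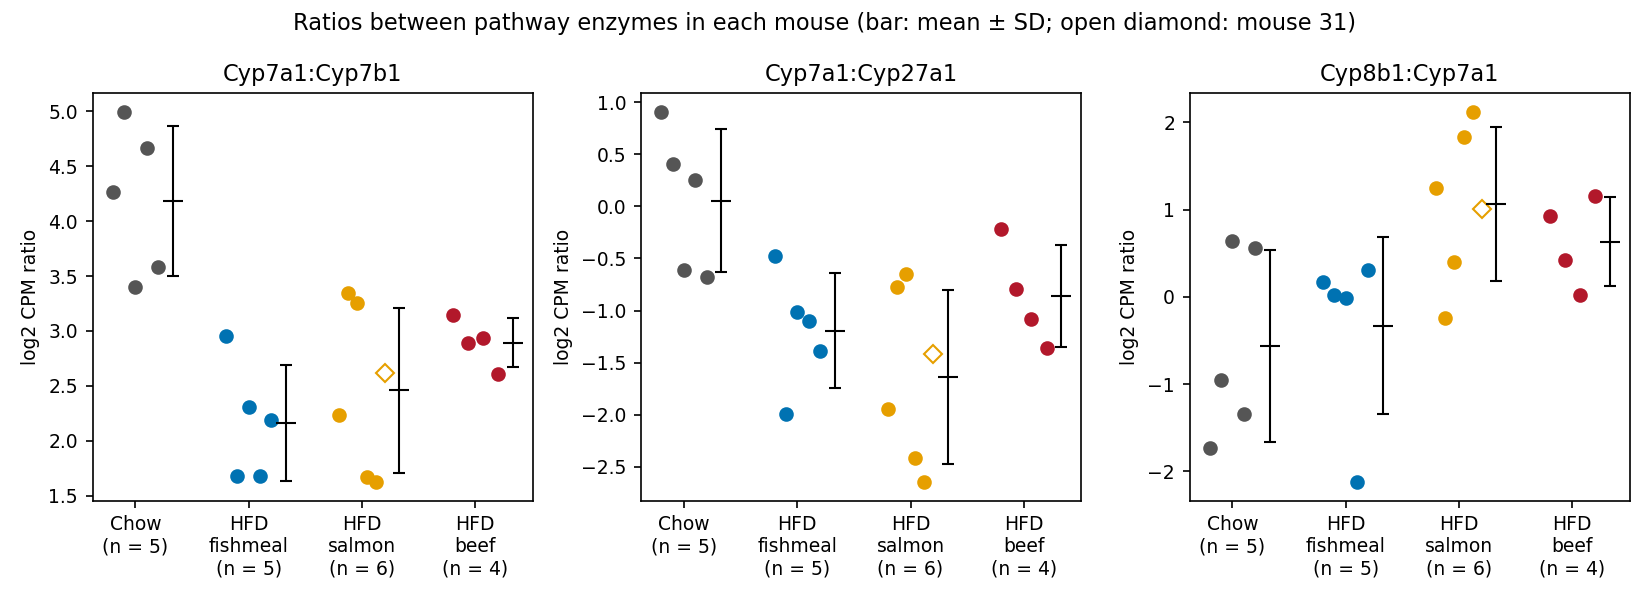
log2 CPM ratios of Cyp7a1 to Cyp7b1, Cyp7a1 to Cyp27a1 and Cyp8b1 to Cyp7a1 in each mouse by labelled group, with the mean ± SD; mouse 31 is an open diamond. The Cyp7a1 to Cyp7b1 ratio of the 15 HFD-fed mice (1.62 to 3.35) lies below that of the 5 chow-fed mice (3.40 to 4.99), and the Cyp8b1 to Cyp7a1 ratio overlaps between all groups.

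The 6 enzymes downstream of the hydroxylases had a median log2 fold change of -0.01 between HFD and chow, near the median of 0.005 over all genes tested, against -0.71 for the 4 hydroxylases. Of the ring enzymes, Hsd3b7 had 29.1 ± 5.04 CPM in HFD-fed and 33.4 ± 5.17 CPM in chow-fed mice (log2 fold change -0.20, SE 0.117, edgeR adjusted p = 0.306). Akr1d1, the ring reductase, had 412 ± 55.1 CPM against 360 ± 52.9 CPM (log2 fold change 0.19, SE 0.107, edgeR adjusted p = 0.291). Neither passed the test, and both groups overlapped for each gene.

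Of the side chain enzymes, the racemase Amacr had 55.1 ± 8.90 CPM in HFD-fed and 58.3 ± 12.6 CPM in chow-fed mice (log2 fold change -0.08, SE 0.118, edgeR adjusted p = 0.727). Acox2, the peroxisomal branched-chain oxidase, was at 167, 174, 228, 179 and 218 CPM in the chow-fed mice. It was at 252, 228, 264, 241 and 264 CPM in the fishmeal mice, from 200 to 228 CPM (median 216) with salmon filet, and at 220, 195, 253 and 258 CPM with beef. The highest value, 264 CPM, was found in fishmeal mice 14 and 20, and 9 of 15 HFD-fed mice lay within the chow range. The log2 fold change of 0.25 (SE 0.0888) did not pass the test (edgeR adjusted p = 0.0725). Acox2 did pass it in DESeq2 (adjusted p = 0.0366), in the fit on all 4 groups (edgeR adjusted p = 0.0489), and without chow mouse 5 (edgeR adjusted p = 0.0379) or beef mouse 35 (edgeR adjusted p = 0.0495).

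The conjugating enzymes were close between the diets. Slc27a5 had 711 ± 103 CPM in HFD-fed and 680 ± 51.0 CPM in chow-fed mice (log2 fold change 0.06, SE 0.101, edgeR adjusted p = 0.765). Baat, the amino acid transferase, had 259 ± 35.1 CPM against 285 ± 18.6 CPM (log2 fold change -0.15, SE 0.0985, edgeR adjusted p = 0.392). It was below all chow-fed mice in 11 of 15 HFD-fed mice, of which mouse 35 had the lowest value, 178 CPM.

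Each HFD group was also set against the same 5 chow-fed mice, so these comparisons are not independent of each other. Cyp7a1 and Cyp27a1 were called lower in all 3, and the other 8 members were not called. The share of all genes called in either direction was 3.38% for fishmeal, 4.46% for salmon filet and 2.48% for beef with edgeR, and 7.14%, 8.96% and 7.06% with DESeq2. For Cyp7a1 the log2 fold change was -2.04 (SE 0.345, edgeR adjusted p = 0.00691) with fishmeal, -2.17 (SE 0.370, edgeR adjusted p = 0.00836) with salmon filet and -1.68 (SE 0.320, edgeR adjusted p = 0.0211) with beef. In the beef comparison the Cyp7a1 call was lost without any 1 of mice 2, 7, 35, 39 or 40 (edgeR adjusted p up to 0.0848), while the log2 fold change stayed between -1.91 and -1.48.

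For Cyp27a1 the log2 fold change was -0.78 (SE 0.120, edgeR adjusted p = 0.00413) with fishmeal, -0.52 (SE 0.0829, edgeR adjusted p = 0.00517) with salmon filet and -0.69 (SE 0.109, edgeR adjusted p = 0.00990) with beef. With mouse 31 counted as beef, Cyp7a1 and Cyp27a1 were still called lower than in chow with salmon filet and with beef. Of all genes, 4.42% and 3.05% were called in these comparisons. Cyp7a1 then had a log2 fold change of -2.20 (edgeR adjusted p = 0.0195) with salmon filet, which is also the value without mouse 31, and of -1.74 (edgeR adjusted p = 0.00944) with beef. Cyp27a1 had -0.55 (edgeR adjusted p = 0.00759) and -0.64 (edgeR adjusted p = 0.00976).

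Cyp8b1 did not pass the test in any group. Its log2 fold change against chow was -1.49 (SE 0.474, edgeR adjusted p = 0.116) with fishmeal, -0.64 (SE 0.209, edgeR adjusted p = 0.0989) with salmon filet and -0.37 (SE 0.324, edgeR adjusted p = 0.601) with beef. In fishmeal, 4 of 5 mice were below all chow-fed mice, and mouse 12 was not. Without mouse 12 the log2 fold change was -1.95 (edgeR adjusted p = 0.0314), and the fit on all 4 groups also passed (edgeR adjusted p = 0.0438). For Cyp7b1 it was -0.07 (edgeR adjusted p = 0.907) with fishmeal, -0.55 (edgeR adjusted p = 0.0859) with salmon filet and -0.37 (edgeR adjusted p = 0.402) with beef. DESeq2 called both Cyp8b1 (adjusted p = 0.0339) and Cyp7b1 (adjusted p = 0.0345) lower with salmon filet. With mouse 31 counted as beef, Cyp8b1 had -0.70 (edgeR adjusted p = 0.0905) and Cyp7b1 -0.59 (edgeR adjusted p = 0.0863) with salmon filet, and both had -0.37 (edgeR adjusted p = 0.549 and 0.332) with beef. Acox2 had 0.37 (edgeR adjusted p = 0.0952) with fishmeal, and was called higher by DESeq2 (adjusted p = 0.0183) and in the fit on all 4 groups (edgeR adjusted p = 0.0303).

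The Cyp7a1 to Cyp7b1 ratio was lower than in chow by 2.02 with fishmeal (exact permutation test, p = 0.00794, adjusted p = 0.0476) and by 1.72 with salmon filet (exact permutation test, p = 0.00649, adjusted p = 0.0476) on the log2 scale. The latter adjusted p was 0.0571 without any 1 of the chow-fed mice, and 0.0476 with mouse 31 counted as beef (difference -1.75, exact permutation test). With beef the difference was -1.29 and did not pass (exact permutation test, p = 0.0238, adjusted p = 0.0714), but it did with mouse 31 counted as beef (difference -1.34, exact permutation test, adjusted p = 0.0381). The ranges did not overlap those of chow in any of these comparisons.

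The Cyp7a1 to Cyp27a1 ratio, which passed in all HFD-fed mice together, did not pass in any single HFD group, and each group overlapped with chow. The difference on the log2 scale was -1.25 with fishmeal (exact permutation test, adjusted p = 0.0714), -1.70 with salmon filet (exact permutation test, adjusted p = 0.0586) and -0.92 with beef (exact permutation test, adjusted p = 0.117). With salmon filet it passed without salmon filet mouse 25 (difference -1.89, exact permutation test, adjusted p = 0.0381) or chow mouse 10 (difference -1.88, exact permutation test, adjusted p = 0.0457). Counting mouse 31 as beef gave -1.74 with salmon filet (exact permutation test, adjusted p = 0.0635) and -1.03 with beef (exact permutation test, adjusted p = 0.0708). Nor did the Cyp8b1 to Cyp7a1 ratio pass, with differences of 0.24 with fishmeal to 1.63 with salmon filet (exact permutation test, adjusted p = 0.729, 0.0779 and, for beef, 0.178). It did not pass in salmon filet or beef with mouse 31 counted as beef either (exact permutation test, adjusted p = 0.117 and 0.122).

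**Figure D4:**
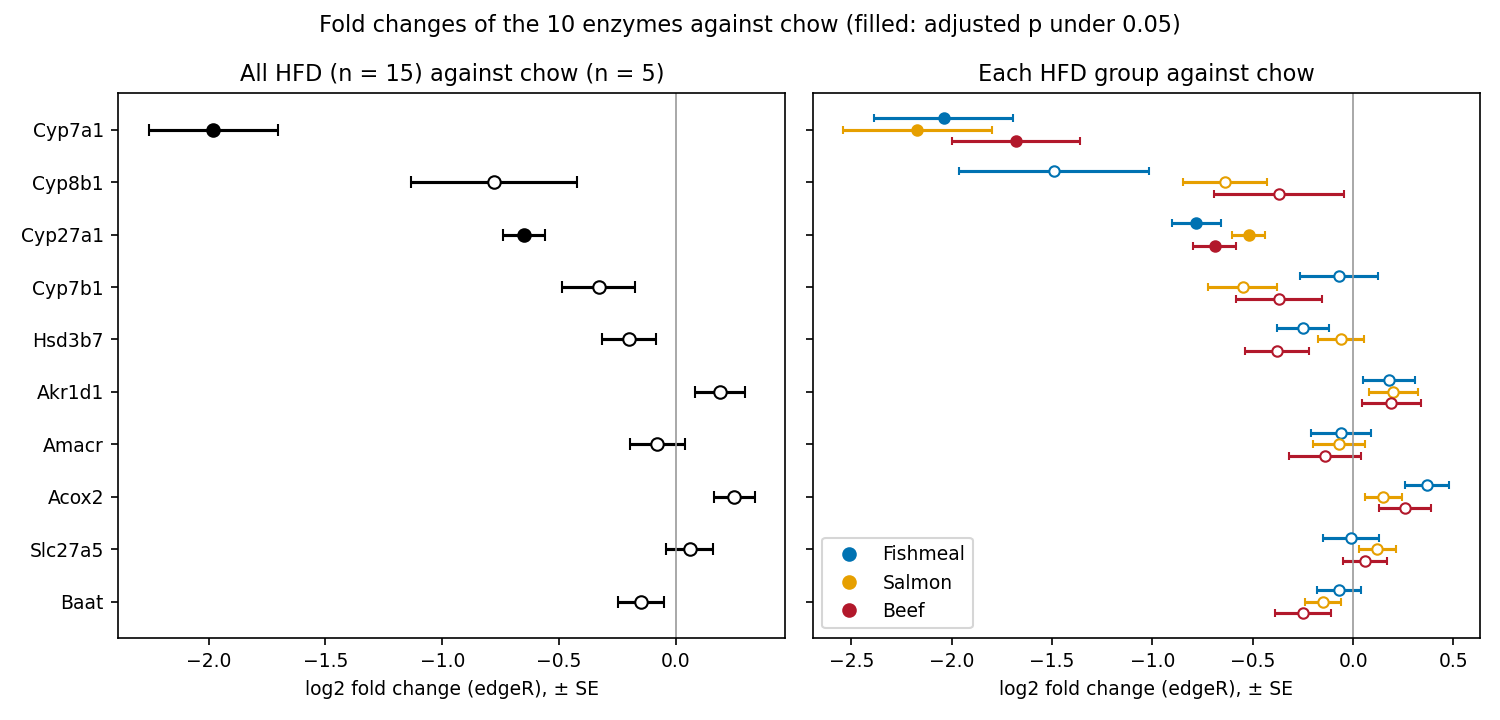
log2 fold change with its SE of each of the 10 enzymes, for all HFD-fed mice against chow (left) and for each labelled HFD group against the same 5 chow-fed mice (right); filled points passed the test (edgeR, adjusted p under 0.05). Only Cyp7a1 and Cyp27a1 have filled points, at -1.98 and -0.65 in all HFD-fed mice.

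Comparing the HFD groups with each other sets diets of like fat content side by side, which differ in protein source, cholesterol, fatty acids and other nutrients together. No member was called in fishmeal against salmon filet, fishmeal against beef, salmon filet against beef, or fishmeal against the pooled salmon filet and beef groups (edgeR). At an unadjusted p under 0.05 there were 3, 0, 1 and 3 members, against 4.24%, 2.33%, 3.71% and 4.03% of all genes. Counting mouse 31 as beef left 2, 2 and 0 members in the first 3 comparisons, against 5.16%, 2.59% and 4.91% of genes. DESeq2 called 1 member in fishmeal against salmon filet and 0 in the other 3, where it called 0.496%, 0.176%, 0.0121% and 0.363% of genes. With edgeR the share of all genes called in either direction was 0.157%, 0.00607%, 0.00% and 0.155%. For salmon filet against beef, where 0 genes were called, 613 genes had an unadjusted p under 0.05 and DESeq2 called 2.

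Cyp7b1 differed most in relation to its spread. All 5 fishmeal mice (15.8 to 22.2 CPM) lay above all 6 salmon filet mice (12.1 to 15.2 CPM), which held for 0.151% of genes tested in this direction. The log2 fold change was 0.50 (SE 0.107) and did not pass the test (edgeR adjusted p = 0.124), while DESeq2 called it (adjusted p = 0.00959). With mouse 31 counted as beef, or left out, it was 0.52 (edgeR adjusted p = 0.126). Against beef it was 0.30 (edgeR adjusted p = 1.00), and against salmon filet and beef together 0.42 (SE 0.105, edgeR adjusted p = 0.253), with 0.46 (edgeR adjusted p = 0.0429) without beef mouse 32.

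Cyp8b1 was lower with fishmeal by value, at 87.6 ± 62.9 CPM (SD, n = 5) against 158 ± 30.4 CPM (SD, n = 6) with salmon filet and 190 ± 91.2 CPM (SD, n = 4) with beef. None of these differences passed the test. The log2 fold change against salmon filet and beef together was -0.95 (SE 0.379, edgeR adjusted p = 0.997), and 4 of 5 fishmeal mice lay below all 10 others. With mouse 31 counted as beef, the log2 fold change was -0.79 (edgeR adjusted p = 0.920) against salmon filet and -1.12 (edgeR adjusted p = 0.999) against beef. The log2 ratio of Cyp8b1 to Cyp7a1 was -0.33 ± 1.01 (SD, n = 5) with fishmeal and 0.89 ± 0.75 (SD, n = 10) in the other HFD groups (difference -1.22, exact permutation test, p = 0.0147, adjusted p = 0.0586). That ratio passed without salmon filet mouse 23 (exact permutation test, adjusted p = 0.0360) or beef mouse 39 (exact permutation test, adjusted p = 0.0408). Against salmon filet alone the difference was -1.39 (exact permutation test, adjusted p = 0.0779), and it passed without mouse 23 (difference -1.65, exact permutation test, adjusted p = 0.0381). With mouse 31 counted as beef it did not pass (difference -1.40, exact permutation test, adjusted p = 0.132).

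Cyp7a1 did not differ between the HFD groups beyond its spread, with 91.1 ± 43.6 CPM (SD, n = 5) with fishmeal, 83.7 ± 43.2 CPM (SD, n = 6) with salmon filet and 116 ± 33.8 CPM (SD, n = 4) with beef. With mouse 31 counted as beef the latter were 81.8 ± 48.0 CPM (SD, n = 5) and 112 ± 31.0 CPM (SD, n = 5). Cyp27a1 had 195 ± 30.1, 232 ± 14.3 and 207 ± 19.9 CPM in the fishmeal, salmon filet and beef groups, and its log2 fold change between fishmeal and salmon filet was -0.24 (SE 0.108, edgeR adjusted p = 0.999). If mouse 31 was counted as beef, Cyp27a1 had 229 ± 13.2 CPM with salmon filet and 215 ± 25.6 CPM with beef, and the log2 fold change was -0.23 (edgeR adjusted p = 0.920). Acox2 had 250 ± 15.5, 215 ± 10.9 and 231 ± 29.7 CPM in the same groups, with a log2 fold change of 0.23 (SE 0.0823, edgeR adjusted p = 0.915) between fishmeal and salmon filet. Under the same regrouping, Acox2 had 214 ± 12.1 CPM with salmon filet and 228 ± 26.7 CPM with beef, and the log2 fold change was 0.22 (edgeR adjusted p = 0.907). For Hsd3b7, Akr1d1, Amacr, Slc27a5 and Baat the log2 fold changes between HFD groups lay between -0.18 and 0.31, and between -0.16 and 0.18 with mouse 31 counted as beef.

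Of 14 further genes of bile acid synthesis, 13 had enough counts for the test between HFD and chow. Of these, 2 rose and 1 fell, where 4.54% of 17120 genes tested were called higher and 5.21% lower. The median log2 fold change of the 13 genes was -0.01. Scp2, the sterol carrier and peroxisomal thiolase, rose from 1910 ± 248 to 2560 ± 279 CPM (log2 fold change 0.42, SE 0.0973, edgeR adjusted p = 0.00765), with 14 of 15 HFD-fed mice above all chow-fed mice. Cyp39a1, which hydroxylates another oxysterol, fell from 46.9 ± 9.59 to 34.8 ± 5.57 CPM (log2 fold change -0.44, edgeR adjusted p = 0.0237). Cyp46a1, best known as the cholesterol hydroxylase of the brain, rose from a mean of 1.68 CPM (1.37 to 2.18) to 2.93 CPM (1.62 to 4.86) (log2 fold change 0.80, edgeR adjusted p = 0.0436). Within the HFD groups against chow, 1 of 13 was called with fishmeal, against 3.38% of all genes. That gene was Cyp2a12, a bile acid hydroxylase outside the rule for naming genes (log2 fold change 0.46, edgeR adjusted p = 0.0350).

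Of 9 regulators of the pathway, 3 rose between HFD and chow and none fell, where 4.54% of 17120 genes tested were called higher and 5.21% lower. The median log2 fold change of the regulators was 0.33. Nr5a2, which encodes LRH-1, an activator of Cyp7a1 and Cyp8b1, rose from 74.1 ± 5.62 to 93.4 ± 7.38 CPM (log2 fold change 0.33, SE 0.0701, edgeR adjusted p = 0.00406). All 15 HFD-fed mice were above all chow-fed mice for Nr5a2, as was the case for 0.695% of genes tested. Mafg, a transcriptional repressor induced by FXR, rose from 53.4 ± 9.40 to 83.4 ± 14.4 CPM (log2 fold change 0.64, SE 0.126, edgeR adjusted p = 0.00218). Klb, the co-receptor for the intestinal signal that represses Cyp7a1, rose from 40.2 ± 7.68 to 50.5 ± 6.36 CPM (log2 fold change 0.33, SE 0.102, edgeR adjusted p = 0.0415). For Klb the groups overlapped, and 4 of 15 HFD-fed mice were above all chow-fed mice. It was not called against chow with fishmeal, salmon filet or beef (edgeR adjusted p = 0.155, 0.234 and 0.179).

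Nr0b2, which encodes SHP, had 16.6 ± 5.34 CPM in HFD-fed and 9.20 ± 4.45 CPM in chow-fed mice and did not pass the test (log2 fold change 0.86, SE 0.281, edgeR adjusted p = 0.0553). It lies outside the rule for naming genes and is given for its place in the pathway. Nr1h4 (FXR) had a log2 fold change of -0.05 (edgeR adjusted p = 0.786). Against chow, Mafg was called higher with fishmeal (edgeR adjusted p = 0.0368), and Nr5a2 (edgeR adjusted p = 0.0302) and Mafg (edgeR adjusted p = 0.0189) with salmon filet. With beef neither Nr5a2 nor Mafg was called (edgeR adjusted p = 0.0691 for each). When mouse 31 was counted as beef, Nr5a2 was called with salmon filet (edgeR adjusted p = 0.0392) and with beef (edgeR adjusted p = 0.0463), and Mafg with salmon filet (edgeR adjusted p = 0.0198) but not with beef (edgeR adjusted p = 0.0725).

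Clock genes moved with diet as well. A clock index was computed in each liver as the mean log2 CPM of Dbp, Tef, Nr1d1, Nr1d2, Per3 and Ciart minus that of Arntl, Npas2, Clock and Cry1. All 6 genes of the first list rose in HFD-fed mice, with Dbp at a log2 fold change of 4.70 (edgeR adjusted p = 0.00423), and 2 of 4 of the second fell, namely Clock and Cry1. The index was -3.31 to -0.96 in chow-fed and -2.23 to 4.01 in HFD-fed mice. The hour at which each liver was taken is not given in the sources used here. T cell markers Cd3d and Cd2, the cholangiocyte gene Sox9, the endothelial gene Clec4g and the pericentral gene Axin2 also fell with HFD. No other gene of these lists was called. Endothelial Stab2 (log2 fold change 0.23) and pericentral Glul, Oat, Cyp2e1, Slc1a2 and Rhbg (0.07 to 0.47) were higher by value, and the rest were lower. The part of these cell type markers in the levels of the enzymes was not tested.

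With the index as a covariate, Cyp7a1 (log2 fold change -2.11, edgeR adjusted p = 0.0127) and Cyp27a1 (log2 fold change -0.60, edgeR adjusted p = 0.0109) were called lower in HFD against chow, in a fit that called 286 of 17120 genes (1.67%), against 1669 without it. Against chow one HFD group at a time, neither was called with the covariate. Over all genes the number called then fell from 556 to 50 (0.304%) with fishmeal, from 740 to 64 (0.385%) with salmon filet and from 411 to 0 (0.00%) with beef, where 1691 genes had an unadjusted p under 0.05. Cyp7a1 then had a log2 fold change of -1.52 (edgeR adjusted p = 0.494) with fishmeal, -2.50 (edgeR adjusted p = 0.0843) with salmon filet and -0.07 (edgeR adjusted p = 0.974) with beef. Cyp27a1 had -0.81 (edgeR adjusted p = 0.155), -0.48 (edgeR adjusted p = 0.101) and -0.95 (edgeR adjusted p = 0.267). No fishmeal mouse and no beef mouse by label had an index within the chow range. Only mouse 22 (-1.23) and mouse 31 (-2.23), both salmon filet by label, did. The covariate fit with mouse 31 counted as beef, which was chosen after the data were seen, called 19 genes (0.115%) with salmon filet and 17 genes (0.104%) with beef, and again no member. Cyp7a1 then had -3.00 (edgeR adjusted p = 0.255) with salmon filet and -1.2 (edgeR adjusted p = 0.389) with beef, and Cyp27a1 had -0.53 (edgeR adjusted p = 0.310) and -0.58 (edgeR adjusted p = 0.235). The Cyp7a1 value with beef thus moved from -0.07 to -1.2 with the group of this 1 mouse.

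In mice 22 and 31, given as a description of 2 animals, the Cyp7a1 levels were 57.3 and 93.5 CPM and the Cyp27a1 levels 221 and 249 CPM, where the lowest chow values were 190 and 304 CPM. In the other 13 HFD-fed mice, diet and the clock index cannot be told apart.

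**Figure D5:**
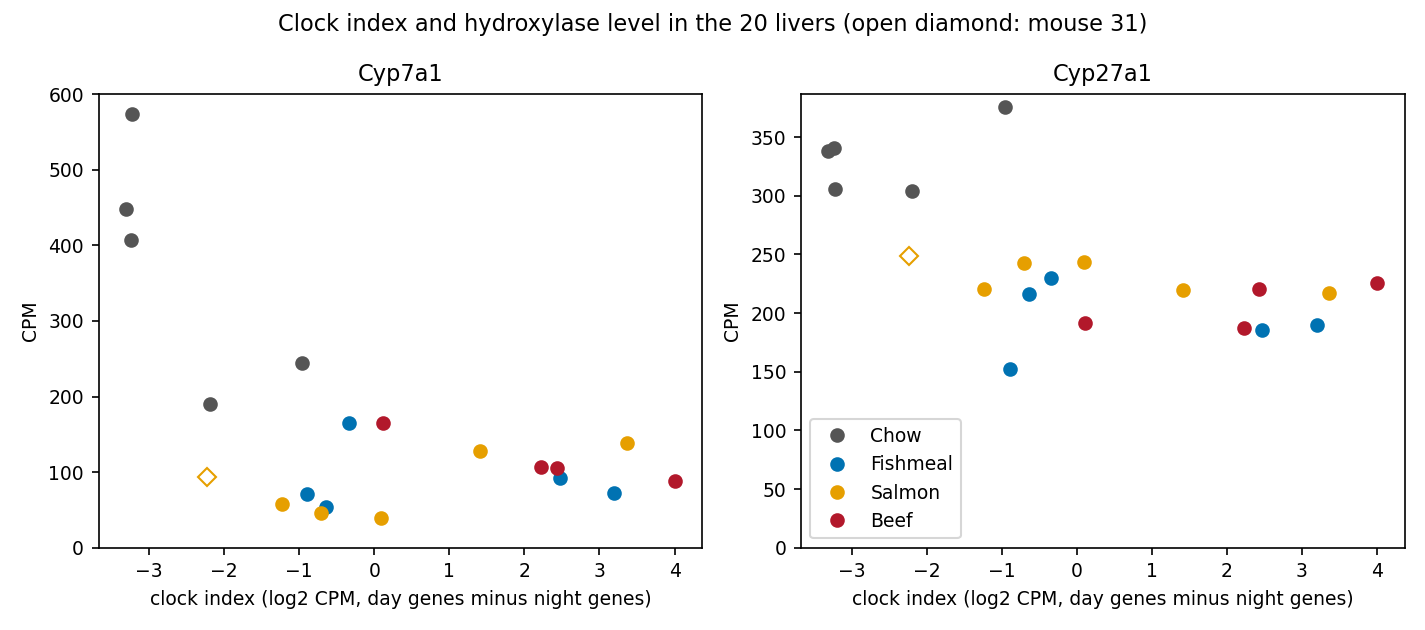
CPM of Cyp7a1 (left) and Cyp27a1 (right) against the clock index in each of the 20 livers, coloured by labelled group; mouse 31 is an open diamond. The HFD-fed mice span -2.23 to 4.01 on the index at low Cyp7a1 and Cyp27a1, and the chow-fed mice sit between -3.31 and -0.96 at higher levels of both.

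Within the 15 HFD-fed mice, 6 relations were examined on the log2 scale, and none passed the threshold. Cyp7a1 and Cyp8b1 had a Pearson r of 0.32 (permutation p = 0.253, adjusted p = 0.526) and a Spearman rho of 0.42 (permutation p = 0.119, adjusted p = 0.602). Cyp7a1 and Cyp7b1 had r = 0.33 (permutation p = 0.225) and rho = 0.29 (permutation p = 0.301), and Cyp7a1 and Cyp27a1 r = -0.16 (permutation p = 0.563) and rho = -0.16 (permutation p = 0.558). With the clock index, Cyp7a1 had r = 0.31 (permutation p = 0.263) and rho = 0.34 (permutation p = 0.217), Cyp8b1 r = 0.13 (permutation p = 0.667) and rho = 0.06 (permutation p = 0.822), and Cyp7b1 r = -0.17 (permutation p = 0.539) and rho = -0.04 (permutation p = 0.881). The adjusted p of r was 0.526 or 0.667 in each case, and that of rho 0.602 to 0.881. Without the 2 mice farthest from the median on the x axis, r was 0.25, 0.32, -0.37, 0.25, -0.03 and -0.10 in the same order. As deviations from group means, r was 0.37, 0.46, -0.06, 0.16, 0.10 and -0.46.

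The genes with the most similar pattern over the 20 livers were sought among 7402 protein coding genes with a mean of at least 10 CPM, as a description. For Cyp7a1 they were Gm2a (Pearson r = 0.88), Cyp2b10 (0.86), Akr1c19 (0.84), Gch1 (0.84) and Pon2 (0.81). For Cyp8b1 they were 0610007P14Rik (0.74), Hsd17b7 (0.73), Pglyrp2 (0.71), Dhcr7 (0.70) and Fdft1 (0.70), of which Hsd17b7, Dhcr7 and Fdft1 encode enzymes of cholesterol synthesis. For Cyp7b1 they were Cct8 (0.91), Cyp2c68 (0.86), mt-Nd2 (0.85), Ugt2b1 (0.85) and Hsp90aa1 (0.82). The livers come from different diet groups, so that these values include differences between the groups.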

How the data were processed

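Liver RNA from 20 mice, 1 library each, was made into strand-specific mRNA libraries for paired-end sequencing. After trimming with BBDuk and mapping with HISAT2 1.2.1, the authors deposited unnormalised read counts per Ensembl gene from featureCounts 1.4.6-p1 (versions from the submitters' processing notes), and a second table of TPM. The strand and multiple-mapping settings of the counting are not given in the sources used here. The submitters print a build named GRCh38 for mouse reads, and positions here come from GENCODE M21 (GRCm38).

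For 100% of 6436 genes with at least 500 counts in every library, the deposited TPM followed the share of counts with a coefficient of variation under 1%. Groups follow the sample labels, and 1 label disagreed with the table's header (mouse 31). No libraries of a group were alike within counting noise (41 pairs, chi-square per gene of at least 50.5).

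Counts were tested with edgeR 4.0 in R 4.3 (TMM, filterByExpr at a minimum count of 10, two-sided quasi-likelihood F-test, Benjamini-Hochberg over all genes tested, threshold 0.05) on the groups compared only. CPM used TMM factors over all 20 libraries, and log2 values a prior count of 2. SE is the log2 fold change divided by the root of F. Ratios used exact two-sided permutation tests and correlations 100000 permutations. The edgeR step was tested on simulated data. Alternatives were DESeq2 1.42, DESeq2 size factors, no filter on low counts, a fit on all 4 groups, limma 3.58 on genes of mean TPM 0.5 or more (log2 after adding 1), the clock index as covariate, mouse 31 counted as beef, the last pair together (added after the data were seen), and each mouse left out in turn.

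Named are all members, each gene of the lists of 14 further genes and 9 regulators that was called in HFD against chow or between HFD groups, and the 5 genes most like Cyp7a1, Cyp8b1 and Cyp7b1. Markers were Krt19, Krt7, Epcam and Sox9 (cholangiocyte), Clec4f, Vsig4, Adgre1 and Cd5l (Kupffer cell), Stab2, Kdr and Clec4g (endothelium), Lrat, Reln and Dcn (stellate cell), Cd3e, Cd3d and Cd2 (T cell), and those named in the report. Adgre1 was not found by symbol. Members, lists and tests were chosen with earlier results of these data known.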

Additional observations from a re-analysis of the deposited data

Results flagged for a closer look

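Of 40 combinations of 10 genes and 4 labelled groups, 1 held a mouse far from the rest of its group. Cyp7b1 was at 18.7 CPM in beef mouse 32, against 13.7 to 14.5 CPM in the other 3 beef mice, so that its gap to the nearest mouse was 0.841 of the group's range where 0.829 is the critical value for 4 mice. Chance alone gives such a mouse in about 1 in 20 groups.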

How the results depend on the processing

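Of 2226 values recomputed under an alternative, 2168 kept their direction where called and their side of the threshold, 31 lost a call, 27 gained one and 0 reversed, while 87 values that were not called changed sign. The 2226 values include counts of called members, for which lost and gained mean fewer and more called. In fishmeal against chow, a rise from 2 to 3 members called lower was kept among the 2168. It occurred in the fit on all 4 groups and without mouse 12. DESeq2 called 1 gene higher (Acox2) against chow in all HFD and in fishmeal, 4 lower in salmon filet against chow, and 1 higher (Cyp7b1) in fishmeal against salmon filet. The fit on all 4 groups called 1 gene higher (Acox2) in HFD and in fishmeal against chow. Over all genes it called 784 and 408 of 17360 higher in these comparisons. In fishmeal against chow it called 3 members lower, Cyp8b1 besides Cyp7a1 and Cyp27a1, where it called 429 of all genes lower. With the clock index as a covariate, 0 members were called lower in fishmeal, salmon filet or beef against chow, where that fit called 50, 64 and 0 of all genes (556, 740 and 411 without it). This was also so in salmon filet and beef with mouse 31 counted as beef, a fit chosen after the data were seen, which called 19 and 17 genes. With mouse 31 counted as beef, the log2 Cyp7a1 to Cyp7b1 ratio of beef against chow, -1.34, passed.

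With each mouse left out in turn, 0 to 1 members were called higher in HFD against chow and in fishmeal against salmon filet and beef, and 1 to 2 were called lower in beef against chow. Over all genes, these fits called 438 to 926 higher, 0 to 4 higher and 48 to 303 lower in the same order. They tested 16288 to 17320 genes. In fishmeal against chow, Cyp8b1 was also called lower without mouse 12 (edgeR adjusted p = 0.0314). The difference in the log2 Cyp7a1 to Cyp7b1 ratio ranged from -1.92 to -1.52 (salmon filet against chow), and that in the Cyp7a1 to Cyp27a1 ratio from -1.52 to -1.13 (HFD against chow) and from -1.89 to -1.48 (salmon filet against chow). The Cyp8b1 to Cyp7a1 ratio ranged from -1.65 to -0.94 (fishmeal against salmon filet) and from -1.38 to -0.77 (fishmeal against salmon filet and beef). DESeq2 size factors, no filter on low counts, and limma on TPM changed no count of called members. The cause of these changes was not tested. No paired analysis was possible because each mouse belongs to 1 group and the replicate numbers only name the mice.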

Other observations

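Among cell type markers, 0 of 3 Kupffer cell genes and 0 of 3 stellate cell genes passed the test between HFD and chow (edgeR). T cell markers summed to 0.632 to 1.84 CPM in HFD-fed and 1.36 to 2.86 CPM in chow-fed mice, with Cd3d at a log2 fold change of -1.01 (edgeR adjusted p = 0.0269) and Cd2 at -1.07 (edgeR adjusted p = 0.0307). Cholangiocyte markers summed to 4.51 to 12.9 CPM and 9.34 to 15.8 CPM in the same groups, with Sox9 at -0.61 (edgeR adjusted p = 0.0301). Of the zonation genes, 1 of 7 pericentral genes was called lower, Axin2 at -0.77 (edgeR adjusted p = 0.00305), and 0 of 6 periportal genes were called. The median log2 fold change of the 7 pericentral genes was 0.08. Of 3 endothelial genes, 1 was called lower, Clec4g at -0.29 (edgeR adjusted p = 0.00758). Stab2 and Kdr, at 0.23 and -0.27, were not called.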
